A study of Homo sapiens with 24 samples.

Results

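Nonsense-mediated decay transcripts are splice forms that GENCODE 29 gives the type nonsense_mediated_decay because their reading frame ends ahead of a later exon junction. A transcript of this type was kept where its mean in a table of 12 libraries was 1 TPM or more and the other transcripts of its gene together also had a mean of 1 TPM or more. TPM is the length-scaled share of a library's RNA that kallisto gives to a transcript, and it sums to 1000000 per library. Of 188753 transcripts listed in each table, 15280 had this type. The rule kept 3571 of them in 2503 genes in the whole-cell experiment and 3239 in 2309 genes in the fractionation experiment, of 41006 and 41169 transcripts of any type that passed the same level rule. In all 4645 transcripts were members in either experiment and 2165 in both. Just inside the level rule the lowest member averaged 1.00 TPM, and just outside it the highest transcript of this type averaged 0.999 TPM, in either table. A further 79 transcripts in whole cells and 82 in the fractionation experiment met the level rule but were left out by the rule on the rest of their gene.

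A549, a human lung adenocarcinoma cell line, gave polyadenylated RNA in 2 experiments. In whole cells the groups were siRNA against TAOK2, control siRNA, compound 2 and its vehicle DMSO. Each group had 3 libraries, from batches A to C. Every whole-cell library has the word mock in its title, without further explanation there. No title in the other experiment has this word, and whether it bears on differences between the experiments was not tested. In the fractionation experiment, cells with TAOK2 siRNA or control siRNA gave nuclear, cytoplasmic and total RNA, and each of the 6 groups had 2 libraries, from batches 1 and 2. The siRNAs were used at 30 nM, and the labels call compound 2 an inhibitor of TAOK2 kinase activity and give no dose or time. All cells were of this single line. Nothing in the labels says that libraries of a group came from separate cultures, so p-values measure the spread between these libraries, which may be technical.

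In nonsense-mediated decay, a ribosome that stops upstream of an exon junction complex allows the helicase UPF1 to be phosphorylated by the kinase SMG1, and SMG5 and SMG6 then help to bring about destruction of the RNA. Many splicing regulators, the SR proteins above all, limit their own amount by splicing a poison exon with a stop codon into their own RNA. A transcript of this type is an annotation from sequence, and its level in a library is what remains between its making and its decay, neither of which was measured here.

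TAOK2 itself, the targeted kinase gene, lay at 8.56 to 12.5 TPM with TAOK2 siRNA, against 34.3 to 40.3 TPM with control siRNA in whole cells. In the fractionation experiment it lay at 0.728 to 2.41 TPM with TAOK2 siRNA against 3.37 to 7.63 TPM with control siRNA in cytoplasmic RNA, and at 2.99 to 3.67 TPM against 5.01 to 9.70 TPM in total RNA, while in nuclear RNA the ranges of 6.24 to 9.68 TPM and 9.31 to 15.6 TPM overlapped. Compound 2 libraries held 20.5 to 30.7 TPM of TAOK2, against 37.5 to 40.6 TPM in DMSO. Of the epithelial markers, KRT7, KRT8 and KRT18 were at least 427 TPM in all 24 libraries. The others differed between the experiments: KRT19 lay at 90.8 to 287 TPM in whole cells and at most 1.22 TPM in the fractionation experiment, while EPCAM lay at 3.72 to 12.2 TPM and 25.7 to 113 TPM and CDH1 at 4.26 to 25.7 TPM and 52.3 to 82.2 TPM in the same order. Of the blood cell markers, CD3E was listed at 0 in all libraries, PTPRC and CD79A reached at most 0.919 TPM, and CD14 lay at 1.17 to 6.60 TPM in whole cells and 4.61 to 16.5 TPM in the fractionation experiment. Of the fibroblast markers, LUM lay at 0.0440 to 0.738 TPM in whole cells and 6.26 to 44.7 TPM in the fractionation experiment, COL1A1 at 5.47 to 29.6 TPM and 1.19 to 7.70 TPM, DCN reached 1.16 TPM and 2.69 TPM, and COL1A2 at most 0.409 TPM. The endothelial markers PECAM1, VWF and CDH5 reached at most 5.22 TPM. Both experiments are labelled A549, these markers set them apart, and the part of that in the results was not tested. Retained-intron transcripts took 7.35% to 9.75% of TPM in nuclear libraries and 3.53% to 3.92% in cytoplasmic ones, whereas the cytoplasmic RNA EEF1A1 lay at 2913 to 3454 TPM in nuclear libraries and 10713 to 11074 TPM in cytoplasmic ones. In these bulk RNAs, fewer cells of a kind and less RNA per cell cannot be told apart.

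The stop codons show how such transcripts come about, and the runs shown are those of members on which the results turn. Each run starts at the first base of the exon that holds the stop codon and ends with the stop codon, in capitals, on the transcript's strand. They come from GENCODE 29 transcript sequences on GRCh38. In SRSF7-203 (chr2:38749152-38749173, reverse strand), SRSF7-204 (chr2:38749319-38749346, reverse strand), RBM39-207 (chr20:35740526-35740597, reverse strand), RBM39-212 (chr20:35734215-35734257, reverse strand) and HNRNPU-208 (chr1:244848809-244848856, reverse strand) the stop lies in a separate exon that no coding transcript of the gene holds. THEM4-202 (chr1:151890177-151890214, reverse strand) has such an exon too.
SRSF7-203: ggcagaaaatttgagacggTGA
SRSF7-204: gtttcttcgtttgagtcagtcgcctTGA
RBM39-207: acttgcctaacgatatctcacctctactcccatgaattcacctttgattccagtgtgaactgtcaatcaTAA
RBM39-212: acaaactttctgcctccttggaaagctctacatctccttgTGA
HNRNPU-208: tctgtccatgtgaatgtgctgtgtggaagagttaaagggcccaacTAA
THEM4-202: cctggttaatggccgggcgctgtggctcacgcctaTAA
In TLE4-213 (chr9:79576133-79576231, forward strand) the exon runs on past a known exon into sequence that coding transcripts splice out, and the stop lies there. The same holds for SRSF7-208, of which the last 30 bases to the stop are shown (chr2:38749516-38749545, reverse strand), and for KAT2A-202 (chr17:42119241-42119270, reverse strand).
TLE4-213: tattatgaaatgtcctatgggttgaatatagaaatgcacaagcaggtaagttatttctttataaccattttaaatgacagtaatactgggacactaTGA
SRSF7-208: cggcgaagaagaagcaggtatttatttTAA
KAT2A-202: accctcatcctcactcacttccccaagTAA
IREB2-202 (chr15:78462922-78462976, forward strand), CYTH2-202 (chr19:48478069-48478135, forward strand) and MRPS5-202 (chr2:95100858-95100894, reverse strand) meet an early stop in an exon that coding transcripts also use.
IREB2-202: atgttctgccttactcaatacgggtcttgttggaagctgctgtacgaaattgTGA
CYTH2-202: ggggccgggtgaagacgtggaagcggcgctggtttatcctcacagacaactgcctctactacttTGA
MRPS5-202: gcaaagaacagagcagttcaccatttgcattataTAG
HNRNPDL-202 (chr4:82426059-82426129, reverse strand) and HNRNPD-211 (chr4:82355334-82355401, reverse strand), from a pair of related RNA-binding protein genes, end at the stop codon of a coding transcript and carry further exon junctions after it.
HNRNPDL-202: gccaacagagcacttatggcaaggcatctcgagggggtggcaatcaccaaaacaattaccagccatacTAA
HNRNPD-211: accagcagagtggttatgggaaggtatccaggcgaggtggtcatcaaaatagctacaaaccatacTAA

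These patterns divide the members. Of the 4645, 2461 (53.0%) had an early stop within coding exons, 1643 (35.4%) had a stop in sequence absent from all coding transcripts of the gene, and 516 (11.1%) shared the stop codon of a coding transcript. The other 25 members were 19 in genes with no coding transcript for comparison and 6 with no annotated stop. In 1119 members the stop lay in a separate exon that no coding transcript holds, a count that includes the 19 in genes with no coding transcript. The 1643 divide into members with such an exon and members whose exon reaches further than in coding transcripts. The stop lay more than 50 bases before the last exon junction in 4600 of 4639 members with a stop (99.2%), at a median distance of 332 bases. The median member had 7 exons, 1112 bases and 270 coding bases, and in 995 the coding start was not found. The annotation's best support level was held by 881 members and its weakest numbered level by 1285.

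Most members were minor forms of their gene. In whole cells the median member averaged 2.92 TPM and 8.23% of its gene's TPM, with quartiles at 3.54% and 18.3%. Only 102 members (2.86%) averaged more than 50% of their gene and 30 averaged 100 TPM or more. In the fractionation experiment the median member averaged 2.51 TPM and 7.64%, and 112 members (3.46%) exceeded 50% of their gene. Shares of the same member spread by a median SD of 1.37 to 1.68 percentage points in whole-cell groups (n = 3) and 1.64 to 2.32 in fractionation groups (n = 2). Members were listed at 0 in 12 to 62 cases per whole-cell library and in 59 to 342 per fractionation library. A kallisto abundance divides reads between overlapping splice forms, so the share of a member that has little sequence of its own is the least certain.

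The most abundant member in whole cells was FTH1-210, a form of the ferritin heavy chain gene with an early stop. It held 18.9% to 21.0% of FTH1 TPM with TAOK2 siRNA and 18.2% to 20.3% with control siRNA. It held 18.4% to 23.7% with compound 2 and 19.7% to 23.9% in DMSO, so the ranges overlapped in both comparisons. HNRNPA1-205, from a gene for an hnRNP that represses exons, shares the normal stop codon and has its last junction 75 bases after it. It held 38.8% to 43.0% of HNRNPA1 with compound 2 and 40.5% to 42.2% in DMSO. PDAP1-202 held 78.4% to 80.6% of its gene in all 12 whole-cell libraries, with the stop codon of a coding transcript followed by further junctions. Forms of the ribosome scaffold gene RACK1 (RACK1-210 and RACK1-224), of the ribosomal protein gene RPS3 (RPS3-218), of lactate dehydrogenase (LDHA-223), of the proline isomerase gene PPIA (PPIA-202), of the actin-severing factor gene DSTN (DSTN-202) and of the aldehyde dehydrogenase gene ALDH3A1 (ALDH3A1-207) made up the rest of the highest 10. None of these 10 passed the share test with TAOK2 siRNA or with compound 2. Together the 10 held 16.6% of member TPM.

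Knockdown of TAOK2 in whole cells gave a share call in almost no member, which does not show that shares were alike. The share test was limma on the log2 odds of a member against the other transcripts of its gene, with 0.5 TPM added to each, and with Benjamini-Hochberg adjustment over all 41006 transcripts at 0.05. It called 1 of 3571 members, none higher and 1 lower, beside 0.0878% of all transcripts, of which 0.0488% were higher and 0.039% lower. At an unadjusted p under 0.05 there were 358 members (10.0%), beside 10.6% of all transcripts. The members' median change was -0.01 and that of all transcripts 0.01 on the log2 odds scale. Summed over members, 11.73% to 12.04% of the TPM of their genes was in these transcripts with TAOK2 siRNA, against 11.8% to 12.8% with control siRNA.

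The member called was NDUFA11-206, from a gene for a subunit of respiratory complex I, with its stop at the start of a separate exon. It held 0, 0.158 and 0 TPM in batches A, B and C with TAOK2 siRNA, against 3.03, 1.496 and 1.11 TPM with control siRNA. The groups did not overlap, but all values were low and lay under 2% of the gene. The change in log2 odds was -1.84 ± 0.28 (SE, limma adjusted p = 0.0476), and the call was lost in 9 of 11 alternatives, batch as a block among them (limma adjusted p = 0.0746). In total RNA of the fractionation experiment it held 0.693 and 1.35 TPM with TAOK2 siRNA, against 3.30 and 2.52 TPM with control siRNA.

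On the level scale, log2(TPM + 1), knockdown called 106 members, 24 higher and 82 lower (2.97%), beside 5.18% of all transcripts, of which 1.6% were higher and 3.58% lower. Leaving out a library lowered this count to between 38 and 68. Batch as a block raised it to 142, beside 6.5% of all transcripts.

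Compound 2 changed the make-up of many genes. The share test called 1018 of 3571 members (28.5%), 553 higher and 465 lower, beside 34.7% of all transcripts, so members were called no more often than transcripts in general. The 553 and 465 are 15.5% and 13.0% of members, against 16.6% and 18.1% of all transcripts. Protein-coding transcripts were called higher in 14.8% and lower in 18.1% of cases, retained-intron transcripts in 18.3% and 23.7%, and processed transcripts in 25% and 14.8%. A member could pass the level rule through the compound 2 libraries alone. Over the 3373 members that also passed on the siRNA libraries, a choice made after seeing the data, 438 were higher and 464 lower. With 0.1 TPM added in place of 0.5, 471 were higher and 511 lower. Summed over members, the share of their genes was 11.3% to 12.2% with compound 2, against 11.9% to 12.5% in DMSO. Single members changed in opposite directions under this sum, and 59 genes held both a member that rose and a member that fell.

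Named here are the members called with the largest changes in percentage points. ANKRD33B-202, which rose, is from an ankyrin-repeat protein gene and has a separate stop exon. It held 60.8%, 67.2% and 52.6% of its gene with compound 2 in batches A, B and C, against 0.822%, 1.88% and 0.401% in DMSO. The groups lay far apart in all batches, with a log2 odds change of 5.19 ± 0.24 (limma adjusted p = 9.75e-08), at 3.25 to 8.34 TPM with compound 2. TLE4-213 comes from a gene for a transcriptional corepressor, and its stop lies in intron sequence read on past an exon, shown above. TLE4-213 held 59.5%, 40.8% and 46.9% of TLE4 with compound 2, against 0, 0 and 1.01% in DMSO (limma adjusted p = 2.80e-07). Its level was 35.5, 22.2 and 19.8 TPM with compound 2, against 0, 0 and 0.197 TPM in DMSO. In the other whole-cell libraries ANKRD33B-202 and TLE4-213 reached at most 0.272 TPM, so they passed the level rule through compound 2 alone.

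NR5A2-205, from the gene for the nuclear receptor LRH-1, has its stop in a long separate exon. It held 49.5%, 62.0% and 52.4% of its gene with compound 2, against 7.58%, 9.88% and 8.85% in DMSO (log2 odds 3.54 ± 0.19, limma adjusted p = 1.77e-07). The groups were distinct in share. In level NR5A2-205 averaged 10.8 ± 3.57 TPM with compound 2 and 6.00 ± 0.230 TPM in DMSO (SD, n = 3 each), while the gene as a whole averaged 19.6 ± 3.996 TPM with compound 2 and 69.5 ± 11.9 TPM in DMSO. IREB2-202, from the gene for iron regulatory protein IRP2, held 45.9%, 40.7% and 41.5% with compound 2, against 0.715%, 0.671% and 3.18% in DMSO (log2 odds 4.94 ± 0.44, limma adjusted p = 6.37e-06). HNRNPDL-202 held 44.98%, 54.9% and 39.5% with compound 2, against 4.23%, 8.41% and 2.80% in DMSO (log2 odds 4.10 ± 1.12, limma adjusted p = 0.0142). The siRNA libraries of HNRNPDL-202 varied widely, between 0.00246% and 12.6%, and its limma call was lost with 0.1 TPM added (adjusted p = 0.0667) and without DMSO replicate 3 (adjusted p = 0.0501).

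The falls named next were the largest in percentage points, a ranking that favours forms with a large share. ING3-203, from a subunit gene of the NuA4 acetyltransferase, held 10.2%, 12.3% and 10.7% with compound 2, against 50.7%, 50.2% and 49.8% in DMSO (log2 odds -2.83 ± 0.12, limma adjusted p = 7.63e-08). TADA2A-213, from an adaptor gene of histone acetyltransferase complexes, held 17.2%, 20.9% and 18.7%, against 51.1%, 66.0% and 50.6% in DMSO (-2.12 ± 0.22, limma adjusted p = 2.10e-05). SSH1-203, from the cofilin phosphatase gene SSH1, held 12.006%, 8.04% and 11.8% with compound 2, against 45.4%, 43.5% and 43.0% in DMSO (-2.45 ± 0.16, limma adjusted p = 8.41e-07). No compound 2 library reached any DMSO library in these 3 members. PPP2R2D-204, from a regulatory subunit gene of phosphatase 2A, held 0, 2.02% and 8.51% with compound 2, against 36.7%, 37.6% and 34.6% in DMSO (limma adjusted p = 4.13e-05). NRDE2-202, from a gene of a nuclear RNA surveillance factor, held 7.79%, 21.2% and 16.3% with compound 2, against 41.5%, 45.3% and 42.4% in DMSO (-1.77 ± 0.25, limma adjusted p = 0.000186). All 5 also fell in level, by 1.22 to 2.87 on the log2(TPM + 1) scale.

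**Figure D1:**
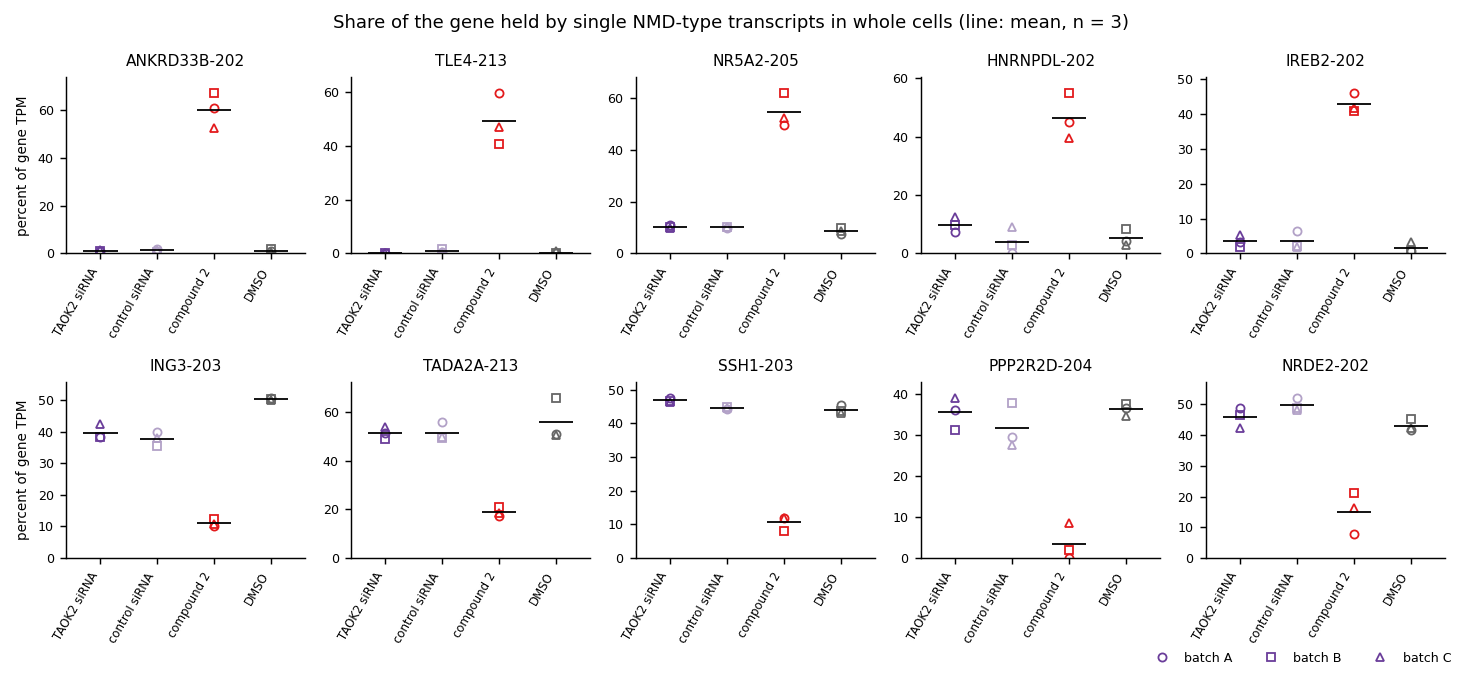
Share of the gene's TPM (percent, y axis) held by the 5 members with the largest rise (top) and the 5 with the largest fall (bottom) with compound 2, in every whole-cell library; columns are TAOK2 siRNA, control siRNA, compound 2 and DMSO, symbols are batches and lines are means of 3 libraries. The compound 2 libraries stand apart from the DMSO libraries in all 10 panels, while the siRNA groups lie close to DMSO in most.

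Members that rose and fell with compound 2 differed in build. Those that rose had a median length of 999 bases and ended at 81.2% of the gene's span, those that fell had 1776 bases and ended at 95.3%, and those not called had 1153 bases and 91.6%. Of the 896 members of 227 to 755 bases 165 rose and 54 fell, and of the 893 members of 2172 to 16862 bases 126 rose and 184 fell. Of all transcripts, whatever their length, 16.6% rose and 18.1% fell. The lengths, end positions and counts by length include members that passed the level rule through compound 2 alone. They are not given without those members, so the rule itself may have shaped them. Members with a stop in sequence absent from coding transcripts were called higher in 18.9% and lower in 14.1% of cases, and those with an early stop in coding exons in 13.6% and 12.4%. Over members that also passed on the siRNA libraries these shares were 15.5% and 15.2%, and 11.5% and 12.9%, with no excess of rises. None of these differences between kinds of member was tested.

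The level test with compound 2 called 1614 members, 415 higher and 1199 lower (45.2% of members), beside 51% of all transcripts. The median transcript of any type fell by 0.27 on the log2(TPM + 1) scale and the median member by 0.26. With each library centred on its median, 742 members were higher and 732 lower (41.3%), beside 48.5% of all transcripts. The median change over all transcripts was then -0.01. Falls in level are therefore relative to the rest of the library, and TPM alone cannot give the change per cell.

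Whether compound 2 and knockdown changed the shares differently was tested as the difference of both responses, which share no control libraries. It called 695 members, 381 higher and 314 lower (19.5%), beside 24.9% of all transcripts. In level it called 1153 members, 360 higher and 793 lower, beside 40.4% of all transcripts. DCAF7-202, from the gene of a scaffold protein that binds DYRK kinases, held 73.1%, 75.01% and 76.3% with compound 2, against 38.0%, 37.0% and 43.2% in DMSO. It held 31.7%, 32.4% and 32.9% with TAOK2 siRNA, against 42.0%, 36.9% and 36.3% with control siRNA, a difference of responses of 2.54 ± 0.20 (limma adjusted p = 8.29e-06). KLHL7-213, from a ubiquitin ligase adaptor gene, lay the other way, at 10.95%, 9.23% and 16.5% with compound 2, against 38.6%, 40.3% and 37.0% in DMSO (difference of responses -2.40 ± 0.30, limma adjusted p = 0.000172).

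SR proteins bind exons and recruit the splicing machinery, and most of their genes make a transcript with a poison exon. Members were found in 11 of 15 SR genes in whole cells, 20 in all, of which 9 rose and 6 fell with compound 2, beside 16.6% and 18.1% of all transcripts, and none was called with TAOK2 siRNA. Their median change with compound 2 was 0.54 on the log2 odds scale, beside 0.02 over all members and 0.00 over all transcripts. SRSF3-204 held 13.0%, 17.5% and 11.7% of SRSF3 with compound 2, against 2.54%, 1.89% and 2.67% in DMSO (2.71 ± 0.27, limma adjusted p = 1.43e-05). SRSF1-204, which keeps the normal stop codon of SRSF1, held 24.3%, 24.3% and 19.8% with compound 2, against 4.16%, 2.21% and 2.37% in DMSO (3.25 ± 0.65, limma adjusted p = 0.00240). Both were higher in all 3 batches. SRSF2-204 (0.82 ± 0.15, limma adjusted p = 0.00142) and SRSF8-202 (1.13 ± 0.16, limma adjusted p = 0.000263) rose too. The main decay form of SRSF6, SRSF6-202, held 61.5%, 62.1% and 58.8% with compound 2, against 75.4%, 74.7% and 74.7% in DMSO, a fall of the log2 odds by 0.94 ± 0.11 (limma adjusted p = 6.46e-05). TRA2B-206, of the splicing activator gene TRA2B, fell as well (-0.71 ± 0.15, limma adjusted p = 0.00334). SRSF1-204, SRSF2-204, SRSF6-202, SRSF8-202 and TRA2B-206 were picked for naming after their values were seen.

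In SRSF7, 3 members changed. SRSF7-203 and SRSF7-204 use an exon that ends at the same base, 38748898 on chromosome 2, and begins at 38749173 in SRSF7-203 and at 38749346 in SRSF7-204. SRSF7-203, with the shorter exon, held 6.33%, 6.09% and 5.68% with compound 2, against 0.318%, 0.516% and 0.509% in DMSO (3.02 ± 0.22, limma adjusted p = 1.62e-06). SRSF7-204, with the longer exon, held 1.84%, 2.16% and 2.48% with compound 2, against 6.42%, 7.39% and 6.03% in DMSO (-1.59 ± 0.19, limma adjusted p = 5.09e-05). The pair therefore changed in opposite directions, with no overlap between groups. SRSF7-208 has a longer exon still, 38748579 to 38749705, that spans this region without splicing, and was the largest of the 3 at 47.9%, 61.1% and 42.6% with compound 2, against 38.5%, 38.6% and 32.1% in DMSO (0.84 ± 0.24, limma adjusted p = 0.0198).

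Of hnRNP and other splicing regulator genes, 22 of 41 had members, 44 in all, and 12 rose and 8 fell with compound 2, beside 16.6% and 18.1% of all transcripts, with a median change of 0.16 (log2 odds). RBM39 encodes an SR-like cofactor of U2AF, and a pair of its poison-exon forms changed in opposite directions. RBM39-207 held 3.87%, 6.88% and 5.19% with compound 2, against 0, 0 and 0.0894% in DMSO (limma adjusted p = 1.33e-06). RBM39-212 held 0.283%, 0.278% and 0.878% with compound 2, against 6.17%, 8.33% and 9.28% in DMSO (-3.98 ± 0.34, limma adjusted p = 4.68e-06). HNRNPD-211 rose to 3.87%, 5.37% and 4.11% with compound 2, against 0.231%, 0.265% and 0.158% in DMSO (3.76 ± 0.24, limma adjusted p = 6.08e-07). HNRNPU-208, from the gene of a nuclear matrix RNA-binding protein, held 0.0289%, 0.0202% and 0.0235% with compound 2, against 0.468%, 0.433% and 0.432% in DMSO (-2.56 ± 0.17, limma adjusted p = 7.34e-07). In level that was 0.164 to 0.220 TPM with compound 2 and 2.52 to 3.05 TPM in DMSO. With TAOK2 siRNA none of the 44 was called.

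**Figure D2:**
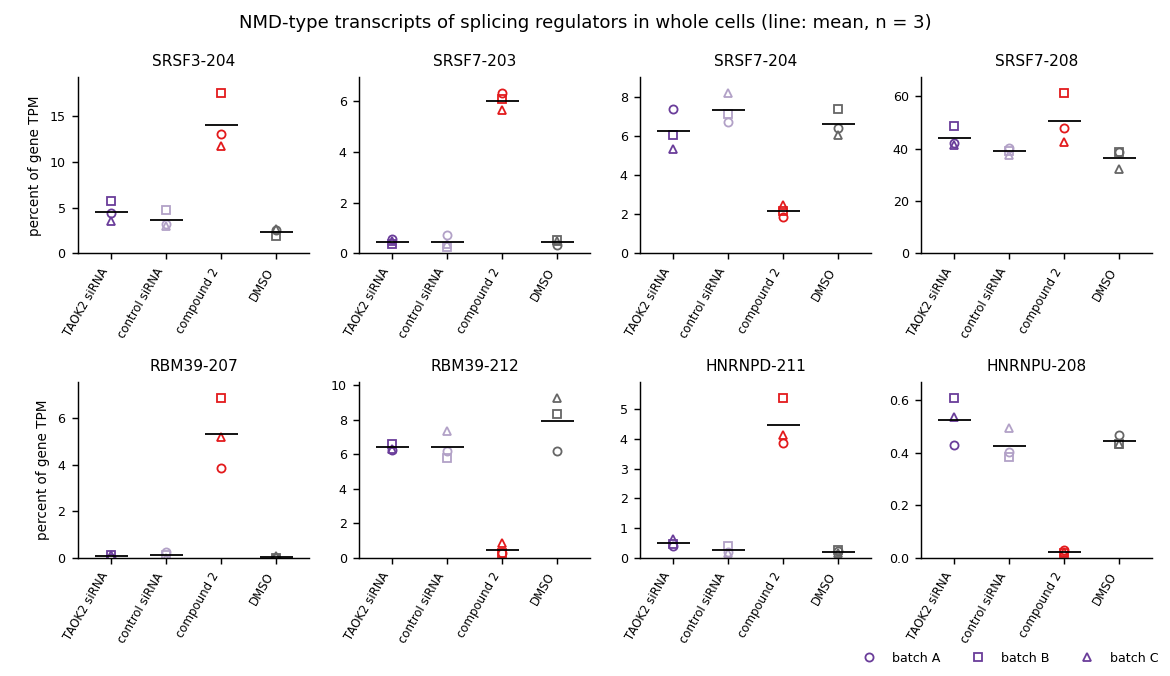
Share of the gene's TPM (percent, y axis, own scale per panel, all from 0) of 8 members from SR, hnRNP and RBM39 genes in every whole-cell library; columns are TAOK2 siRNA, control siRNA, compound 2 and DMSO, symbols are batches and lines are means of 3 libraries. SRSF7-203 against SRSF7-204 and RBM39-207 against RBM39-212 change in opposite directions with compound 2.

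The CLK and SRPK kinases phosphorylate SR proteins, and 4 of 12 genes of the CLK, SRPK, DYRK and TAO list had 5 members, of which 2 rose and 2 fell with compound 2, where 16.6% of all transcripts rose and 18.1% fell. SRPK2-206 held 6.51%, 5.55% and 7.26% with compound 2, against 1.15%, 1.73% and 0.976% in DMSO (1.71 ± 0.21, limma adjusted p = 6.98e-05). CLK3-225 held 0.518%, 2.12% and 2.65%, against 14.0%, 15.007% and 10.9% in DMSO (-2.61 ± 0.35, limma adjusted p = 0.000150), and CLK1-204 held 3.38%, 5.31% and 2.73%, against 12.1%, 16.3% and 11.7% in DMSO (-1.89 ± 0.26, limma adjusted p = 0.000202). Of 38 members in ribosomal protein genes 4 rose and 2 fell, beside the same 16.6% and 18.1%. RPL21-208 held 1.97%, 1.93% and 2.01% with compound 2, against 0.394%, 0.342% and 0.354% in DMSO (2.23 ± 0.19, limma adjusted p = 4.80e-06), and RPL14-204 rose too (1.93 ± 0.22, limma adjusted p = 4.30e-05). Of 9 members in stress genes with RNAs known to be targets of decay, 2 rose and 4 fell, again beside 16.6% and 18.1%. ASNS-213, of asparagine synthetase, fell (-1.58 ± 0.23, limma adjusted p = 0.000249), CARS-204, of a cysteine tRNA ligase, rose (1.08 ± 0.18, limma adjusted p = 0.000601), and TBL2-204 fell (-0.96 ± 0.31, limma adjusted p = 0.0314), a call lost in 6 of 11 alternatives.

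The decay machinery was itself measured. Of 21 genes for decay and exon junction factors, none rose and 6 fell with TAOK2 siRNA in whole cells, 28.6% of the list, against 14.4% of 13106 genes that fell (limma on log2(gene TPM + 1), 22.2% called in either direction). CASC3, an exon junction core protein, averaged 54.1 ± 2.14 TPM with TAOK2 siRNA and 87.6 ± 4.73 TPM with control siRNA (SD, n = 3 each), a change of -0.69 ± 0.11 (SE, limma adjusted p = 0.00111). DHX34, EIF4A3, UPF2, RBM8A and ETF1 fell by 0.22 to 0.46. The ETF1 call was lost in 6 of 10 alternatives (limma adjusted p = 0.0573 to 0.0944), among them those without control siRNA replicates 2 or 3 and without TAOK2 siRNA replicates 1 or 2, and RBM8A was lost with values centred on the median (limma adjusted p = 0.0618), which left 4 falls. With compound 2, 2 rose and 14 fell, against 51.8% of all genes that fell (63.7% called in either direction), and the median gene fell by 0.31. SMG1, the kinase of UPF1, rose to 121, 131 and 97.8 TPM with compound 2, against 58.3, 50.2 and 50.5 TPM in DMSO (1.12 ± 0.10, limma adjusted p = 7.00e-07). DHX34, a helicase that works with UPF1, fell to 6.11, 6.17 and 6.95 TPM, against 24.5, 25.3 and 24.96 TPM in DMSO (-1.81 ± 0.08, limma adjusted p = 3.09e-09). UPF1 fell too, to 23.7 ± 6.47 TPM with compound 2, against 46.6 ± 4.87 TPM in DMSO (SD, n = 3 each, limma adjusted p = 0.000109). With values centred on the median, 10 rose and 7 fell, against 43.2% of all genes that rose and 24.3% that fell. That centring raised the median change over all genes to 0.19, and genes with small falls, UPF2, ETF1 and RBM8A among them, turned positive by that shift.

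Between nuclear and cytoplasmic RNA the members lay between coding and intron-retaining transcripts. With TAOK2 siRNA the share test called 752 of 3239 members (23.2%), 461 higher in nuclear RNA and 291 lower, beside 30.2% of all transcripts (19.4% higher, 10.7% lower). With control siRNA it called 911 (28.1%), 545 higher and 366 lower, beside 36.1% of all transcripts (21.6% higher, 14.4% lower). In all 637 members were called with both siRNAs, all with the same sign, which is 84.7% of the calls with TAOK2 siRNA and 69.9% of those with control siRNA. The median change with control siRNA was -0.06 on the log2 odds scale for members, -0.47 for protein-coding transcripts, 0.64 for processed transcripts and 2.05 for retained-intron transcripts. Here too a member could pass the level rule through the nuclear libraries alone. Over the 2675 members that also passed on the total RNA libraries, 282 were higher and 266 lower with TAOK2 siRNA, against 356 higher and 321 lower with control siRNA. With batch as a block, which the labels name, 608 were higher and 510 lower with TAOK2 siRNA, against 687 higher and 617 lower with control siRNA. These are 34.5% and 40.3% of members, beside 40.6% and 47.1% of all transcripts. At a minimum mean of 5 TPM the balance turned, with 79 higher and 88 lower with TAOK2 siRNA. With control siRNA 88 were higher and 132 lower. In the same order, 19.1% and 25.1% of members were called, beside 27.6% and 34.6% of all transcripts. The median change was then -0.258 and -0.328 over members, beside -0.225 and -0.391 over all transcripts.

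The kind of stop codon divided the members between the fractions. Those with a stop in sequence absent from coding transcripts shifted by a median of 0.35 with TAOK2 siRNA and 0.46 with control siRNA, towards the nucleus. Those with an early stop in coding exons shifted by -0.31 with TAOK2 siRNA and -0.34 with control siRNA. Members that share the normal stop shifted by -0.09 with TAOK2 siRNA and -0.15 with control siRNA. With control siRNA, 27.5% of the first kind were higher in the nucleus and 7.96% lower, against 9.39% and 13.4% of the second kind. The order of these 2 kinds was the same in each batch, at 0.32 and -0.26 in batch 1 and 0.39 and -0.35 in batch 2 with TAOK2 siRNA, and at 0.51 and -0.32 in batch 1 and 0.42 and -0.36 in batch 2 with control siRNA. Over members that also passed on the total RNA libraries the medians were 0.11 and -0.37 with TAOK2 siRNA and 0.29 and -0.41 with control siRNA. Separate stop exons and extended exons did not differ in direction, at 0.50 and 0.35 with control siRNA. Shorter members of the first kind shifted more than longer ones, at 0.69 and 0.23 with control siRNA. The difference between kinds is a description across transcripts, which are not replicates, and was not tested.

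**Figure D3:**
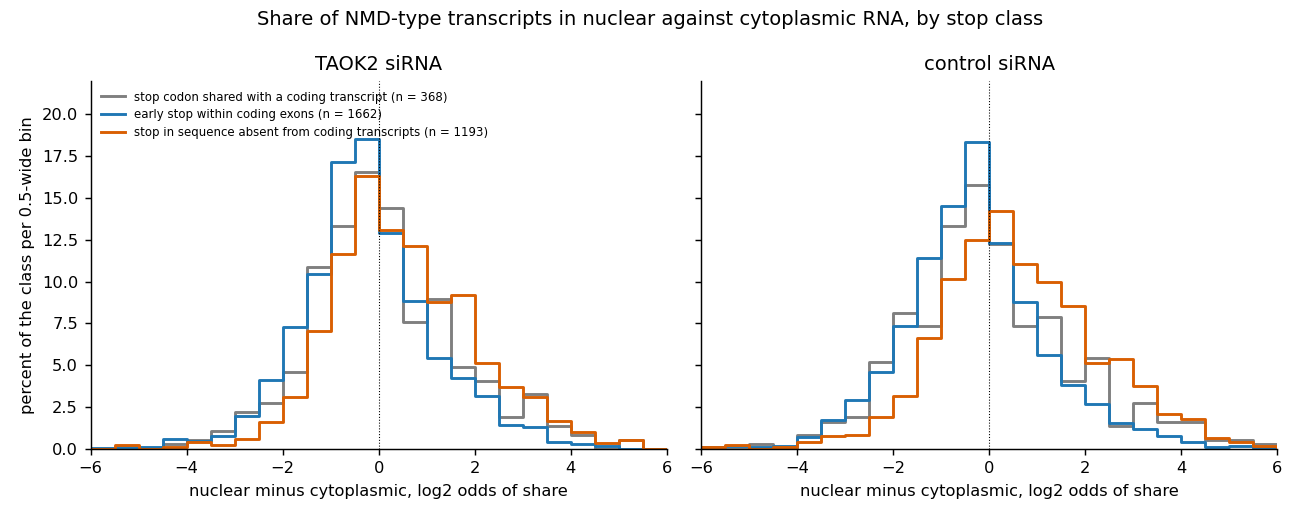
Distribution of the nuclear minus cytoplasmic change in share (x axis, log2 odds, from limma) over members of each stop class, as percent of the class per bin (y axis), with TAOK2 siRNA at the left and control siRNA at the right. The class with its stop in sequence absent from coding transcripts (orange) lies to the right of the class with an early stop in coding exons (blue), with medians of 0.35 against -0.31 with TAOK2 siRNA and 0.46 against -0.34 with control siRNA.

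Summed TPM also separated the kinds, but with the members that share the normal stop lowest in nuclear relative to cytoplasmic RNA. Members with a stop in sequence absent from coding transcripts held 8.12% and 8.94% of their genes in nuclear RNA with TAOK2 siRNA and 9.58% and 10.2% with control siRNA. They held 4.88% and 6.60% in cytoplasmic RNA with TAOK2 siRNA and 4.80% and 6.14% with control siRNA. All 4 nuclear libraries were above all 4 cytoplasmic ones. Members with an early stop in coding exons held 9.07% to 9.68% in the 4 nuclear libraries and 9.25% to 10.6% in the 4 cytoplasmic ones, so these ranges overlapped. Members that share the normal stop held 10.3% to 11.6% in nuclear and 12.8% to 14.3% in cytoplasmic libraries. As a share of the whole library, all members together took 1.91% to 2.21% in nuclear RNA and 2.38% to 3.04% in cytoplasmic RNA. As a share of their own genes they lay the other way, at 11.07% to 11.86% in nuclear RNA and 9.44% to 11.05% in cytoplasmic RNA, and the median member's share was 6.79% to 7.78% in nuclear RNA and 4.91% to 5.85% in cytoplasmic RNA.

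**Figure D4:**
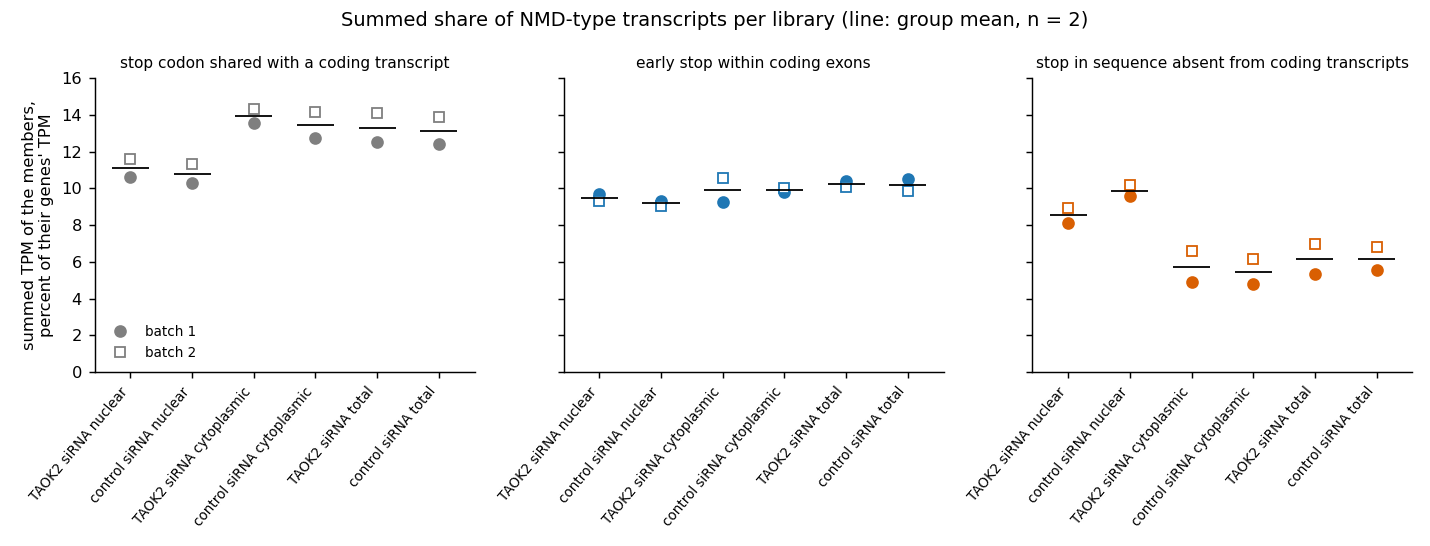
Summed TPM of the members of each stop class as percent of the TPM of their genes (y axis) in each fractionation library; columns are TAOK2 siRNA and control siRNA in nuclear, cytoplasmic and total RNA, filled circles are batch 1, open squares batch 2 and lines are means of 2 libraries. Only in the right panel do the nuclear libraries (8.12% to 10.2%) all lie above the cytoplasmic ones (4.80% to 6.60%).

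On the level scale, 818 members were higher in nuclear RNA and 358 lower with TAOK2 siRNA, beside 41% of all transcripts (29.8% higher). With control siRNA 882 were higher and 383 lower, beside 44.5% of all transcripts (30.9% higher). The median transcript of any type was 0.23 higher in nuclear RNA with control siRNA. With each library centred on its median the order turned, to 452 higher and 800 lower with TAOK2 siRNA, beside 43.8% of all transcripts. With control siRNA 530 were then higher and 919 lower, beside 51.8% of all transcripts. That centring also moved the median change over all transcripts, to -0.36 with TAOK2 siRNA and -0.53 with control siRNA. Levels in the fractions are therefore given beside shares and not as amounts per cell.

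The members named next had the largest excess in nuclear RNA in percentage points, a ranking that favours forms with a large share. RPS14-204, RPS19-204, SRSF7-208 and HNRNPU-208 moved further than KAT2A-202 on the log2 odds scale with control siRNA, and held smaller shares. KAT2A-202, from the gene of the acetyltransferase GCN5, held 67.9% and 54.6% in nuclear RNA with TAOK2 siRNA in batches 1 and 2, against 8.25% and 18.5% in cytoplasmic RNA (3.16 ± 0.43, limma adjusted p = 0.000866). With control siRNA it held 76.9% and 75.1% in nuclear RNA, against 22.7% and 18.7% in cytoplasmic RNA (3.41 ± 0.43, limma adjusted p = 0.000451). Its stop lies where an exon is read on into the intron, as shown above. CREBZF-202, from a bZIP factor gene, held 57.9% and 62.8% in nuclear RNA, against 12.2% and 19.1% in cytoplasmic RNA with control siRNA (2.95 ± 0.51, limma adjusted p = 0.00236). It keeps the normal stop codon and has a single junction, 287 bases after it. HIST1H4H-203, a spliced and polyadenylated form of a histone H4 gene, held 75.9% and 72.9%, against 17.9% and 17.8% in cytoplasmic RNA with control siRNA (3.46 ± 0.32, limma adjusted p = 0.000121). CKMT1B-205, of a mitochondrial creatine kinase gene with a near-identical copy, CKMT1A, between which reads could be split, held 51.0% and 51.4%, against 0.434% and 1.13% (3.90 ± 0.38, limma adjusted p = 0.000137). ARPC4-TTLL3-203, a readthrough form joining neighbouring genes, held 96.3% and 93.9%, against 65.2% and 25.9% (4.04 ± 0.64, limma adjusted p = 0.00148).

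UBE2D4-209, a form of a ubiquitin-conjugating enzyme gene, held 56.4% and 70.9% in nuclear RNA and 0 and 8.08% in cytoplasmic RNA with TAOK2 siRNA (limma adjusted p = 0.0160). It held 56.3% and 75.3% in nuclear RNA and 0 and 7.41% in cytoplasmic RNA with control siRNA (limma adjusted p = 0.00969). Without nuclear replicate 2 the limma adjusted p was 0.0950 with TAOK2 siRNA and 0.0682 with control siRNA, and without cytoplasmic replicate 1 it was 0.0863 and 0.0660, so both calls were lost. HEBP2-203, of a heme-binding protein gene, held 61.6% and 54.2% in nuclear RNA, against 3.31% and 3.51% in cytoplasmic RNA with TAOK2 siRNA (4.35 ± 1.06, limma adjusted p = 0.0150). That limma call was lost whichever of the 4 libraries was left out, at adjusted p = 0.0521 to 0.0731. With control siRNA it held 65.8% and 61.5% in nuclear RNA, against 30.7% and 4.26% in cytoplasmic RNA (limma adjusted p = 0.0479), which was lost too, at an adjusted p of up to 0.280 without cytoplasmic replicate 2.

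Other members were forms of the cytoplasm. CYTH2-202, from the gene of an ARF exchange factor, was listed at 0 in all 4 nuclear libraries. In cytoplasmic RNA it held 56.8% and 57.4% of CYTH2 with TAOK2 siRNA and 54.8% and 61.4% with control siRNA (limma adjusted p = 6.40e-05 and 3.69e-05). THEM4-202, from a thioesterase gene, with the separate stop exon shown above, held 3.52% and 4.15% in nuclear RNA, against 62.9% and 66.5% in cytoplasmic RNA with TAOK2 siRNA (-5.12 ± 0.29, limma adjusted p = 6.40e-05). With control siRNA it held 2.86% and 2.04%, against 57.2% and 61.6% (-5.46 ± 0.29, limma adjusted p = 3.69e-05). THEM4-202 thus went against the median of its stop class. MRPS5-202, of a mitochondrial ribosomal protein gene, held 16.9% and 17.0%, against 66.9% and 68.6% in cytoplasmic RNA with control siRNA (-3.31 ± 0.34, limma adjusted p = 0.000165). METTL22-201 held 15.3% and 15.03%, against 69.4% and 80.1% (-3.79 ± 0.41, limma adjusted p = 0.000226), and SRD5A1-204, of a steroid reductase gene, held 1.53% and 11.9%, against 53.5% and 63.9% (-3.47 ± 0.47, limma adjusted p = 0.000637). POLR2J3-203, of an RNA polymerase II subunit gene with close copies, held 5.77% and 2.53%, against 51.5% and 53.1% (-4.56 ± 0.49, limma adjusted p = 0.000220). In all 6 the nuclear and cytoplasmic libraries stood far apart with both siRNAs.

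**Figure D5:**
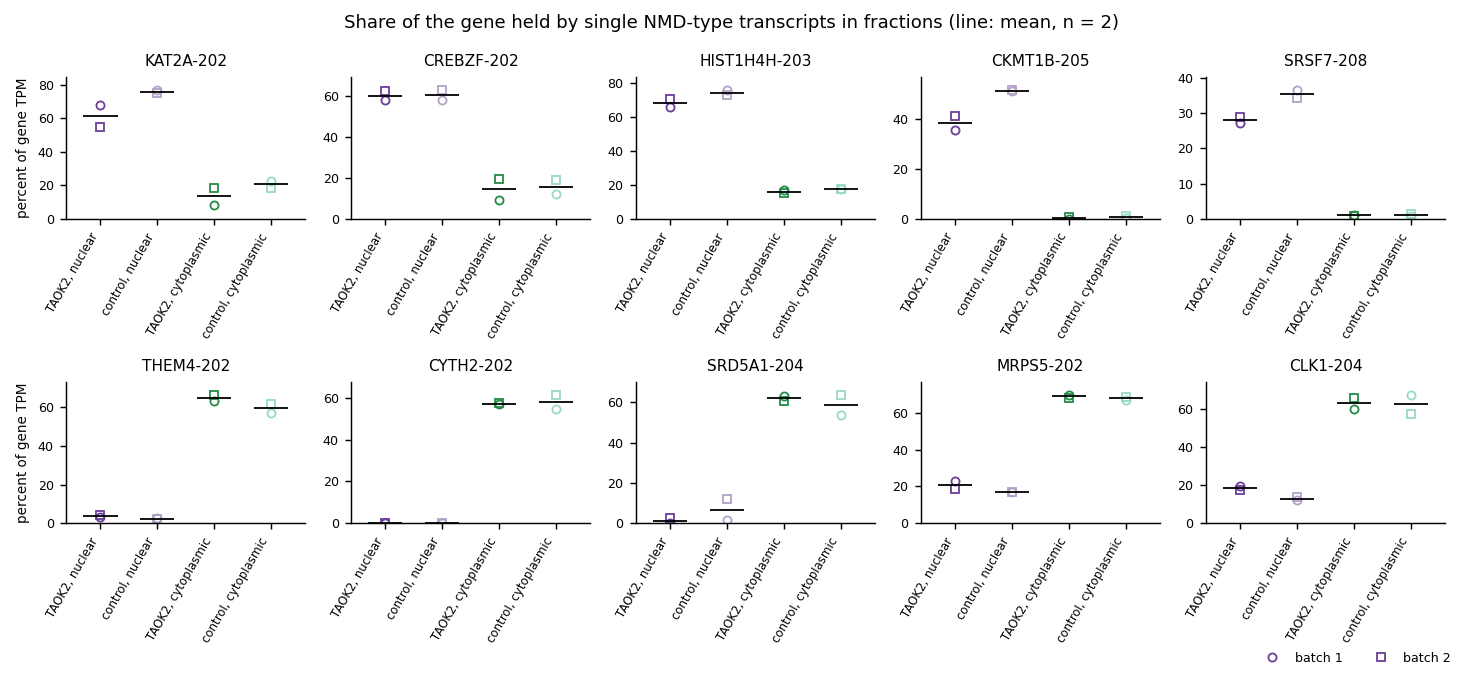
Share of the gene's TPM (percent, y axis, own scale per panel, all from 0) of 10 members in nuclear and cytoplasmic RNA; columns are TAOK2 siRNA and control siRNA in nuclear RNA, then the same in cytoplasmic RNA, symbols are batches and lines are means of 2 libraries. The top row lies higher in nuclear RNA and the bottom row in cytoplasmic RNA, with no overlap between fractions.

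Among SR genes, 18 members were measured in the fractions, 2 higher and 1 lower in nuclear RNA with TAOK2 siRNA, and 4 higher and 2 lower with control siRNA. Of all transcripts, 19.4% were higher and 10.7% lower with TAOK2 siRNA, and 21.6% higher and 14.4% lower with control siRNA. SRSF7-208 held 27.2% and 28.8% in nuclear RNA with TAOK2 siRNA, against 0.972% and 0.942% in cytoplasmic RNA (4.91 ± 0.36, limma adjusted p = 7.51e-05). With control siRNA it held 36.6% and 34.4%, against 0.888% and 1.495% (5.09 ± 0.36, limma adjusted p = 4.54e-05). In level it lay at 55.1 to 84.7 TPM in the 4 nuclear libraries and at 0.940 to 1.84 TPM in the 4 cytoplasmic ones. HNRNPU-208 lay the same way, at 5.93% and 6.00% of HNRNPU in nuclear RNA, against 0.128% and 0.110% in cytoplasmic RNA with control siRNA (4.22 ± 0.33, limma adjusted p = 6.29e-05). SRSF6-202 held 65.8% and 70.8% in nuclear RNA, against 31.6% and 23.5% in cytoplasmic RNA with control siRNA (2.48 ± 0.48, limma adjusted p = 0.00425), and was named after its values were seen. SRSF3-204 held 10.6% and 14.0% in nuclear RNA, against 0.798% and 4.18% in cytoplasmic RNA with control siRNA, and did not pass (2.75 ± 1.53, limma adjusted p = 0.208).

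HNRNPA1-205 lay the other way from HNRNPU-208, at 14.8% and 14.4% of HNRNPA1 in nuclear RNA, against 34.1% and 34.8% in cytoplasmic RNA with control siRNA (-1.61 ± 0.30, limma adjusted p = 0.00358). With TAOK2 siRNA the change of HNRNPA1-205 was -1.04, a call lost with only the groups compared (limma adjusted p = 0.16). It was lost too whichever TAOK2 siRNA library of these fractions was left out, at changes of -1.09 to -0.994. Over the 39 members of hnRNP and other splicing regulators, 7 were higher and 7 lower in nuclear RNA with TAOK2 siRNA, and 7 higher and 9 lower with control siRNA. Beside these stand 19.4% higher and 10.7% lower of all transcripts with TAOK2 siRNA, and 21.6% and 14.4% with control siRNA. CLK1-204 was a cytoplasmic form, at 12.4% and 13.6% in nuclear RNA, against 67.3% and 57.3% in cytoplasmic RNA with control siRNA (-3.38 ± 0.56, limma adjusted p = 0.00192), and CLK4-210 was lower in nuclear RNA too (-1.87 ± 0.34, limma adjusted p = 0.00293). With TAOK2 siRNA the change of CLK4-210 was -1.37, a call lost with only the groups compared (limma adjusted p = 0.106). It was lost too without cytoplasmic replicate 1 or either nuclear replicate, at changes of -1.45 to -1.28. Of 41 members in ribosomal protein genes, 7 were higher and 2 lower in nuclear RNA with TAOK2 siRNA, and 7 higher and none lower with control siRNA. The shares of all transcripts beside these are the same as for the hnRNP list. RPS14-204 held 10.3% and 4.71% of RPS14 in nuclear RNA, against 0.141% and 0.0445% in cytoplasmic RNA with control siRNA (5.92 ± 0.59, limma adjusted p = 0.000158). RPS19-204 held 0.679% and 1.5004%, against 0.0142% and 0.00992% (5.68 ± 0.49, limma adjusted p = 8.76e-05). Of stress genes, TBL2-207 (2.04 ± 0.33, limma adjusted p = 0.00154) and ASNS-213 (1.56 ± 0.34, limma adjusted p = 0.00787) were higher in nuclear RNA with control siRNA.

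No change of share with knockdown passed the test in any fraction. In total, nuclear and cytoplasmic RNA the limma test called 0 of 3239 members, beside 0% of all transcripts, and at an unadjusted p under 0.05 there were 68, 84 and 159 members (2.1%, 2.59% and 4.91%), beside 1.99%, 2.88% and 5.05% of all transcripts. Leaving out a library raised the cytoplasmic count to at most 11. For the effect of knockdown on the nuclear to cytoplasmic difference, limma called 0 members in share and 0 in level, beside 0% of all transcripts, with 78 and 91 members at an unadjusted p under 0.05 (2.41% and 2.81%), beside 2.7% and 2.42% of all transcripts. With 2 libraries per group, the smallest adjusted p over members was 0.611 in cytoplasmic RNA and 1 elsewhere in share. On simulated data with the same number of libraries, and with changes planted in few transcripts, the test recovered none of them. That setting differs from the real nuclear to cytoplasmic comparison, where 36.1% of all transcripts were called with control siRNA. The recovery therefore does not measure the power of that comparison. So few libraries per group cannot show that shares were alike. KAT2A-202 shows the spread involved, with nuclear shares of 67.9% and 54.6% with TAOK2 siRNA and 76.9% and 75.1% with control siRNA.

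The batches of the fractionation experiment stood apart for some of the most abundant members. RPL37A-202, an early-stop form of a ribosomal protein gene, held 0.0379% to 0.180% in the 6 libraries of batch 1 and 26.3% to 35.2% in those of batch 2. RPS3-210 held 35.6% to 54.2% in batch 1 and 1.07% to 6.11% in batch 2. RPL35A-202 held 6.96% to 13.1% in batch 1 and 53.1% to 63.7% in batch 2. Over all members, the batches did not overlap in 278 (8.58%), beside 6.54% of all transcripts, and 153 of these lay over 10 percentage points apart. Among the shortest 25% of members 10.7% did not overlap, against 7.88% of the others. PDIA3-202, of a disulphide isomerase of the endoplasmic reticulum, also differed, at 80.8% to 87.6% in batch 1 and 93.1% to 95.1% in batch 2. None of these 4 passed the share test between fractions, except RPS3-210 with TAOK2 siRNA once batch was a block in limma (adjusted p = 0.00899). B2M-212 held 46.8% to 63.1% of B2M over the 12 libraries and COX6C-207 held 40.1% to 83.1%.

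Shares also differed between the experiments. FTH1-210 held 18.2% to 23.9% of FTH1 in whole cells and 0.468% to 3.65% in the fractionation libraries. DCAF7-202 held at least 31.7% of its gene in whole cells and at most 7.36% in the fractionation experiment, where it was no member. RPL37A-202 held at most 0.0965% in whole cells. Of the whole-cell members, 60.6% were members in the fractionation experiment, and 66.8% of the fractionation members were members in whole cells. The tables come from separate experiments, so these shares are set side by side and no test was made across them.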

How the data were processed

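Polyadenylated RNA of A549 cells was sequenced as 150 bp pairs, per the labels' protocols. The authors deposited TPM values per transcript; the submitters' processing notes name kallisto and the build GRCh38.p14. Its version, the transcript annotation and read counts are not stated in the sources used, so the depth behind a TPM value is unknown. Of 188753 listed transcripts, 169797 (90.0%) matched GENCODE 29, holding 97.0% to 98.3% of TPM in a library, and the others were not used.

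A member's share is its percent of the summed TPM of its gene's matched transcripts. Shares were tested as log2 odds with 0.5 TPM added and levels as log2(TPM + 1), with limma 3.58.1 in R 4.3.3 (trend and robust variance, a mean per group over the 12 libraries of a table, Benjamini-Hochberg adjustment over all transcripts tested at 0.05). Genes were tested as log2 of summed TPM + 1. The scripts were tested on simulated data with changes planted in few transcripts. These were recovered in part in the whole-cell design and not in the fractionation design. Named are the 10 members with the highest mean TPM per table, up to 5 rises and 5 falls in percentage points per share comparison among called members with the same sign in every batch and a gene mean of at least 10 TPM, and up to 4 members with the smallest adjusted p per gene list. The members and lists were chosen with earlier results of these data known.

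The labels name the batches. Deviations of same-batch libraries from their group means correlated at 0.468 to 0.750 over the 30 pairs of the fractionation experiment, so batches pair those samples. With 2 libraries per group the deviations are mirror images, so both batches give the same values and the 30 are not independent. Over 18 whole-cell pairs the correlations were -0.130 to 0.198. Alternatives were 0.1 or 1 TPM added, no filter on low values, a minimum mean of 5 TPM, only the groups compared, batch as a block, each library centred on its median, and each library left out. Members that also passed the level rule on libraries outside a comparison were added after seeing the data. Some items are not reported here.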

Additional observations from a re-analysis of the deposited data

How the results depend on the processing

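Share calls with TAOK2 siRNA in whole cells were few under all settings. The share test gave 2 members with 0.1 TPM added, 0 with 1 TPM added, 3 without the filter on low values, 0 with only the groups compared, and 0 to 1 with a library left out. Before the last of these settings, 0.0439%, 0.141%, 0.326% and 0.0171% of all transcripts were called in that order. The level test gave 38 with no filter, beside 0.816% of all transcripts, and 38 to 68 with a library left out, against 106 in the main fit. It gave 142 with batch as a block, 107 with only the groups compared, 99 centred on the median and 90 with 0.1 TPM added. Of all transcripts, 6.5%, 5.06%, 4.36% and 4.47% were called in that order. A minimum mean of 5 TPM, which tests fewer members, gave 309 share calls with compound 2, 206 for its difference from knockdown, 167 for nuclear against cytoplasmic RNA with TAOK2 siRNA and 220 with control siRNA. These are 26.6%, 17.7%, 19.1% and 25.1% of members, beside 33.3%, 24.6%, 27.6% and 34.6% of all transcripts. With only the groups compared, the nuclear to cytoplasmic comparison with TAOK2 siRNA gave 305 members in share and 643 in level, from fewer samples. These are 9.42% and 19.9% of members, beside 16% and 24.1% of all transcripts. Leaving out a library gave 453 to 647 members with TAOK2 siRNA and 561 to 669 with control siRNA in that comparison, 837 to 926 with compound 2, and 0 to 11 for knockdown in cytoplasmic RNA; a group left with 1 library was assumed to vary like the others.

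With batch as a replicate block the share test called 1036 members with compound 2, 1 with TAOK2 siRNA, 1118 for nuclear against cytoplasmic RNA with TAOK2 siRNA and 1304 with control siRNA, and 0 for knockdown in each fraction. These are 29%, 0.028%, 34.5%, 40.3% and 0% of members, beside 35.4%, 0.0658%, 40.6%, 47.1% and 0% of all transcripts. Centring on the median added about the same amount to every gene, so small falls with compound 2 turned positive by construction, to 0.18 for ETF1, 0.39 for MAGOH, 0.34 for MAGOHB, 0.17 for NBAS, 0.25 for RBM8A, 0.29 for UPF2 and 0.10 for UPF3A. Of these, NBAS (limma adjusted p = 0.0627) and UPF3A (adjusted p = 0.154) did not pass the test after the turn. Centring left 10 of the 21 genes called higher and 7 lower. No read counts were given, so low shares carry an unknown counting error.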
